A study of Homo sapiens with 9 samples.

Results

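The 10 genes described here encode enzymes that set the share of mono- and polyunsaturated fatty acids in phospholipids, together with 1 enzyme of ether lipid synthesis. They were taken by name: ACSL4, ACSL3, LPCAT3, SCD, FADS1, FADS2, ELOVL5, FASN, POR and AGPS. They are 10 of the 58395 gene identifiers in the deposited counts, and all 10 were among the 16761 genes that passed the low-count filter. RNA was measured by RNA-seq in MDA-MB-231, an established human cell line of triple-negative breast cancer, 96 h after reverse transfection in DMEM. The groups were a non-targeting control siRNA (siNC) and 2 individual siRNAs against ZIP7, siZIP7_1 and siZIP7_2, with 3 libraries each. ZIP7, the product of SLC39A7, is a zinc transporter that moves zinc from the endoplasmic reticulum into the cytosol. Each siZIP7 group is a single siRNA sequence in a single cell line. Nothing in the labels says that the 3 libraries of a group came from separate cultures, so the p-values measure the spread between these libraries, which may be technical.

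Cells make saturated fatty acids with FASN, add a first double bond with SCD, and lengthen and further desaturate dietary polyunsaturated fatty acids with ELOVL5, FADS1 and FADS2. ACSL4 and ACSL3 activate fatty acids to acyl-CoAs, ACSL4 with a preference for long polyunsaturated ones and ACSL3 for monounsaturated ones, and LPCAT3 places polyunsaturated chains into membrane phospholipids. Polyunsaturated phospholipids are the substrate of the lipid peroxidation that ends in ferroptosis, an iron-dependent form of cell death, whereas monounsaturated chains are known to oppose it. POR passes electrons to cytochromes P450 and can feed peroxidation, and AGPS makes the ether bond of plasmalogens in peroxisomes.

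The libraries held 24153785 to 30454419 reads on genes. Levels are given as CPM, counts scaled to library size after TMM normalization, and 3 counts corresponded to at most 0.129 CPM. The SLC39A7 level was 329 ± 12.5 CPM (SD, n = 3) in siNC, 35.6 ± 2.83 CPM in siZIP7_1 and 19.2 ± 1.45 CPM in siZIP7_2. ESR1 and PGR, the hormone receptor genes that a triple-negative line should lack, were at no more than 0.58 and 0.07 CPM in any library, and ERBB2 was at 56.7 to 91.5 CPM. The mesenchymal marker VIM was at 5333 to 5688 CPM in siNC, 2618 to 2808 CPM in siZIP7_1 and 2816 to 2937 CPM in siZIP7_2. The summed level of the epithelial markers was 446 to 470 CPM in siNC. It was 871 to 895 CPM in siZIP7_1 and 369 to 385 CPM in siZIP7_2. For a mesenchymal-type line (VIM, CD44, FN1, EGFR) the sums were 7353 to 7742, 4162 to 4365 and 5848 to 6082 CPM, in that order. Neither set moved as one in siZIP7_2. There, CD44 (1727 to 1826 CPM) and EGFR (856 to 933 CPM) were above siNC (787 to 861 and 649 to 688 CPM). VIM and FN1 were below siNC. CDH1 (0.790 to 1.28 CPM) was above siNC (0.363 to 0.605 CPM), whereas EPCAM, KRT8 and KRT18 were below it. The summed levels of markers of other cell types, over 2 or 3 genes per set, were lower than these sums over 4 genes. For endothelial cells they were 2.88 to 3.31, 0.206 to 0.255 and 9.15 to 10.4 CPM, in the same order of groups. For fibroblasts they were 52.0 to 57.4, 108 to 115 and 172 to 194 CPM (DCN at no more than 0.07 CPM). For immune cells they were at most 3.18 CPM (CD3E at no more than 0.04 CPM). Nearly all of the fibroblast sum was COL1A1. At 172 to 194 CPM in siZIP7_2, COL1A1 overlapped KRT8 (181 to 188 CPM) and was above EPCAM and CDH1. The marker sums moved with the siRNAs beside the lipid genes below, and their part in those results was not tested. In a bulk library, fewer cells of a type and less RNA per cell cannot be told apart.

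Which lipid genes moved, and which way, depended on the siRNA. With siZIP7_1, LPCAT3 fell by 76.8% and SCD was lower, while FASN, AGPS, FADS2, ACSL3, ACSL4 and POR were higher. With siZIP7_2, FADS1 fell by 48.4%, and AGPS, FADS2, ELOVL5, ACSL3 and FASN were lower, while ACSL4 and POR were higher. The levels of each gene in each library are plotted by group.

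**Figure D1:**
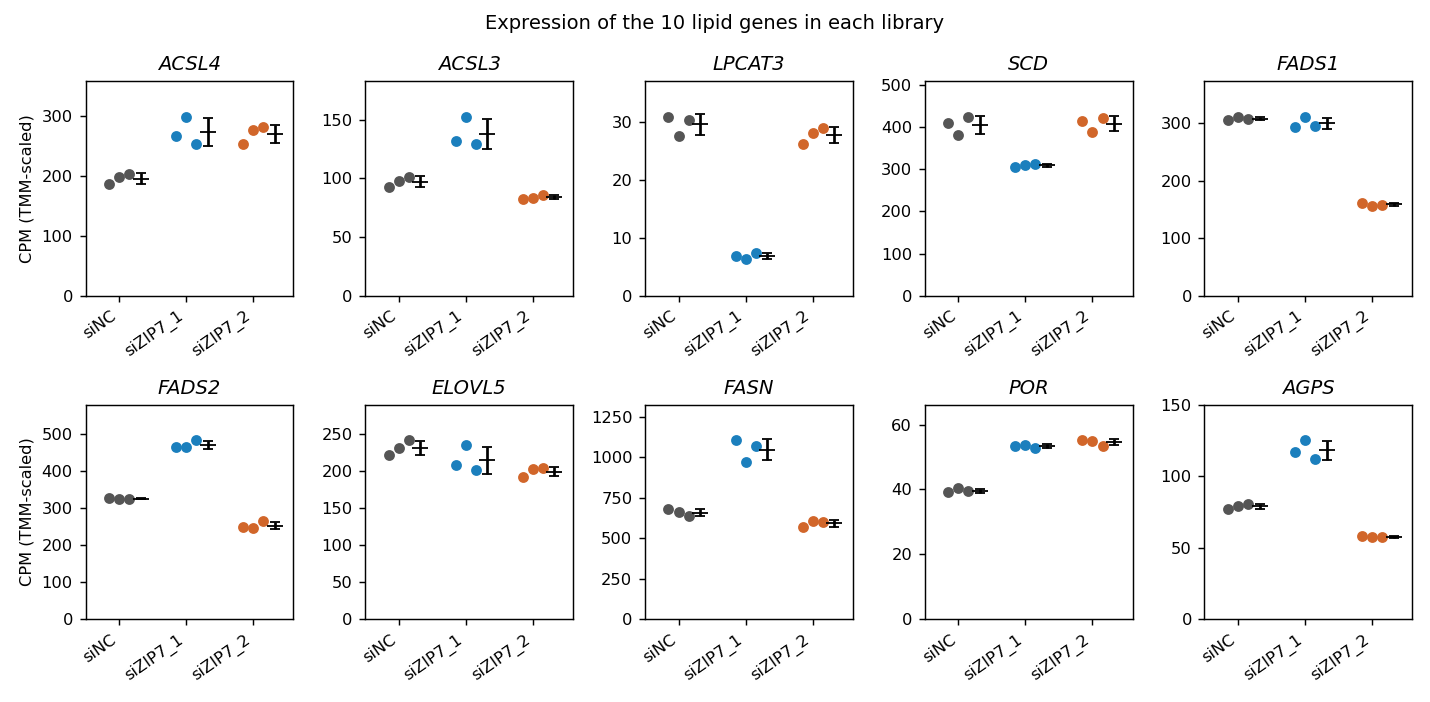
Level of each of the 10 lipid genes in each library, in CPM on linear axes that start at 0, for siNC, siZIP7_1 and siZIP7_2. Points are libraries, and the bar with whiskers is the mean ± SD (n = 3). LPCAT3 lies between 6.32 and 7.37 CPM in siZIP7_1 and above 26 CPM in every other library, and FADS1 lies between 156 and 162 CPM in siZIP7_2 and at 293 CPM or more in the rest.

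By the quasi-likelihood test of edgeR, with p-values adjusted by Benjamini-Hochberg over all genes tested and a threshold of 0.05, 6 of the 10 genes were higher and 2 lower with siZIP7_1 against siNC. Across all 16761 genes, 34.8% were higher and 35.9% lower in that comparison, and 70.7% passed in either direction. With siZIP7_2 against siNC, 2 were higher and 6 lower (3 and 4 with upper-quartile normalization). In that comparison 38.5% of all genes were higher and 39.3% lower, 77.8% together. The groups' values did not overlap for 8 of the 10 genes in the first comparison and for 8 in the second, where 72.1% and 78.7% of all genes did not. So the count of genes that passed was close to the background in both comparisons, and the sections below turn on which genes, in which direction and by how much. The median log2 fold change of the 10 genes was 0.45 with siZIP7_1 and -0.18 with siZIP7_2, against -0.01 and -0.0018 over all genes tested. These comparisons share the siNC libraries. The direct comparison of siZIP7_2 with siZIP7_1 takes no difference from them, but they entered its fit through the filter, normalization and spread. There 2 of the 10 genes were higher and 5 lower, where 38.1% of all genes were higher and 40.6% lower. When the siZIP7 groups were fitted without the siNC libraries, 2 were again higher and 5 lower. The values of 7 of the 10 genes did not overlap between the siRNAs, against 79.7% of all genes.

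Most of these changes were modest. Tested against a change of 1.8-fold with edgeR's glmTreat, only LPCAT3 passed with siZIP7_1 (adjusted p = 5.4e-15) and only FADS1 with siZIP7_2 (adjusted p = 0.0129), where 16.9% and 24.7% of all genes passed. Between the siRNAs, LPCAT3 (adjusted p = 1.79e-14) and AGPS (adjusted p = 0.00043) passed this test, and 28.2% of all genes did. The log2 fold changes of the 10 genes are plotted with their intervals.

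**Figure D2:**
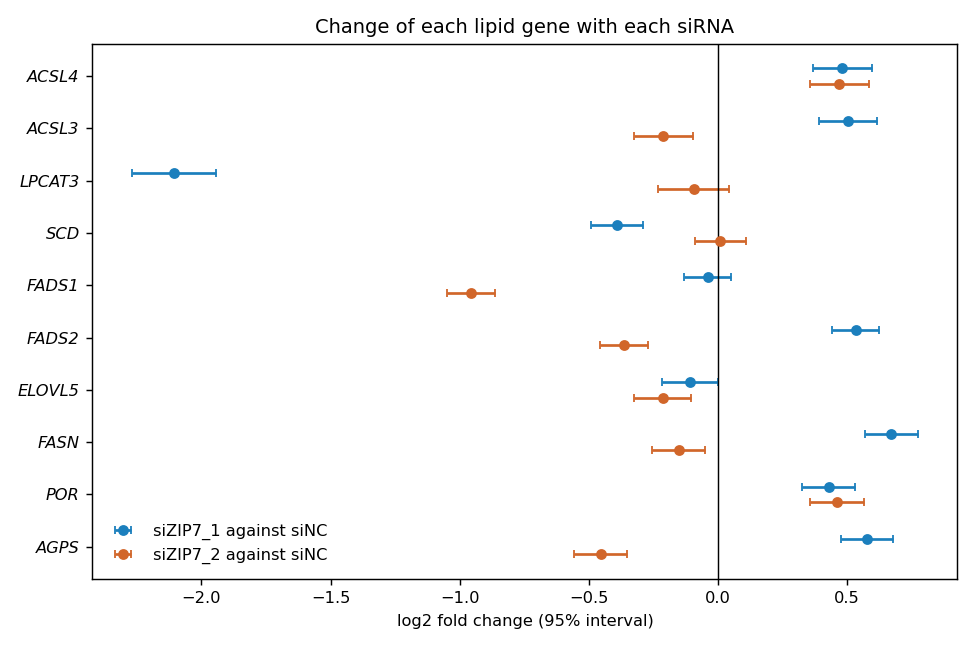
Log2 fold change of each of the 10 lipid genes against siNC, with siZIP7_1 and with siZIP7_2. Points are edgeR estimates from 3 libraries per group and whiskers their 95% intervals. The intervals of ACSL4 and POR lie above 0 with both siRNAs, those of ACSL3, FADS2, FASN and AGPS lie above 0 with siZIP7_1 and below 0 with siZIP7_2, and LPCAT3 is the farthest from 0, at -2.11 with siZIP7_1.

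The first step, activation of fatty acids, was represented by ACSL4 and ACSL3. ACSL4 (ENSG00000068366, chromosome X, 109624244 to 109733403 on the minus strand of GRCh38) was at 186, 198 and 204 CPM in siNC, 267, 299 and 254 CPM in siZIP7_1, and 254, 277 and 282 CPM in siZIP7_2. Every siZIP7 library was above every siNC library, and the siZIP7 groups overlapped each other. On the log2 scale ACSL4 rose by 0.48 with siZIP7_1 (SE 0.0557, adjusted p = 9.08e-09) and by 0.47 with siZIP7_2 (SE 0.0558, adjusted p = 1.15e-08), a rise of 1.40-fold and 1.38-fold. Between the siRNAs the log2 difference was -0.01, with a 95% interval from -0.12 to 0.10 (adjusted p = 0.863).

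ACSL3 (ENSG00000123983, chromosome 2, 222860934 to 222944639, plus strand) went in opposite directions. Its level was 92.3, 98.0 and 101 CPM in siNC and 132, 152 and 129 CPM in siZIP7_1, and it was 82.6, 83.4 and 85.9 CPM in siZIP7_2. No library of one group fell within the range of another. ACSL3 rose by 0.50 on the log2 scale with siZIP7_1 (SE 0.0552, adjusted p = 2.87e-09) and fell by 0.21 with siZIP7_2 (SE 0.0564, adjusted p = 0.0013). The fall with siZIP7_2 was small, and with upper-quartile normalization it was -0.10 and no longer passed (adjusted p = 0.0695). The log2 difference between the siRNAs was -0.72 (SE 0.0555, adjusted p = 1.39e-12).

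Because ACSL4 and ACSL3 favour different fatty acids, their ratio within each library was also taken, on levels per kilobase of exonic length (FPKM). This ratio and those of FADS1 to FADS2 and of SCD to FASN were chosen after the values of the genes had been seen, and they are given without a test. The ratio of ACSL4 to ACSL3 was 2.27 in all 3 siNC libraries and 2.28, 2.21 and 2.22 in siZIP7_1, where both genes rose. It was 3.47, 3.74 and 3.71 in siZIP7_2, above every library of the other groups.

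**Figure D3:**
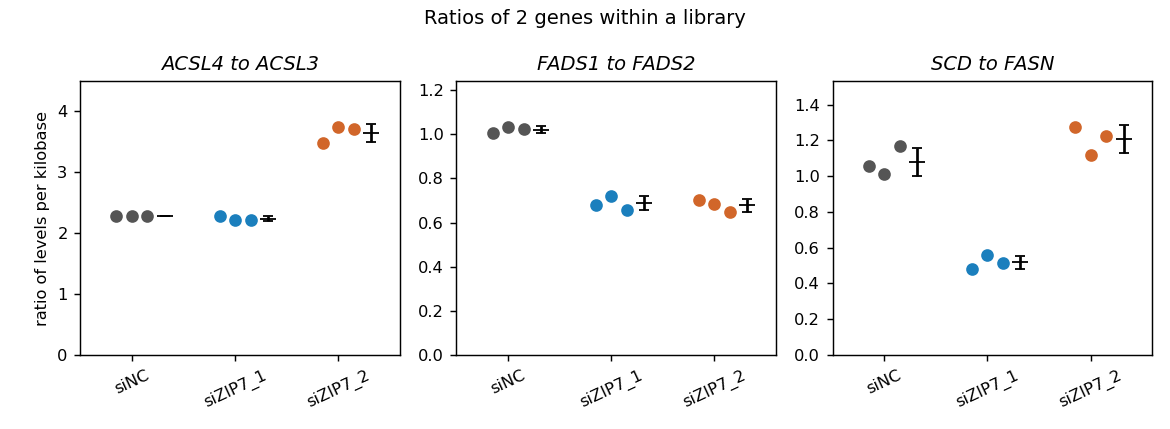
Ratio of the levels per kilobase of a pair of lipid genes in each library, for ACSL4 to ACSL3, FADS1 to FADS2, and SCD to FASN. Points are libraries, and the bar with whiskers is the mean ± SD (n = 3). The ratio of ACSL4 to ACSL3 stands apart in siZIP7_2 (3.64 ± 0.149), that of SCD to FASN in siZIP7_1 (0.518 ± 0.0379), and that of FADS1 to FADS2 is below siNC in both siZIP7 groups.

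The largest change among the 10 genes was that of LPCAT3 (ENSG00000111684, chromosome 12, 6976186 to 7018510, minus strand), the acyltransferase that loads polyunsaturated chains into lysophosphatidylcholine and related lipids. It was at 30.9, 27.5 and 30.4 CPM in siNC, at 6.92, 6.32 and 7.37 CPM in siZIP7_1, and at 26.3, 28.0 and 29.03 CPM in siZIP7_2. The siZIP7_1 libraries were all far below the rest, and the siZIP7_2 libraries overlapped siNC. With siZIP7_1 the log2 fold change was -2.11 (SE 0.0796, adjusted p = 1.05e-19), and 2.48% of all genes had a lower value in that comparison. With siZIP7_2 it was -0.09, with a 95% interval from -0.23 to 0.04 (adjusted p = 0.204). LPCAT3 was 4.04-fold higher in siZIP7_2 than in siZIP7_1 (log2 difference 2.01, SE 0.0798, adjusted p = 1.89e-19).

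LPCAT3 shares much of its exonic sequence with EMG1, a ribosome biogenesis methyltransferase gene on the opposite strand (ENSG00000126749, chromosome 12, 6970893 to 6997428), as the map of their exons shows. EMG1 exons cover 65.6% of the 4725 exonic bases of LPCAT3, which leaves 1625 bases that are its own. The strand setting of the counting is not given in the sources used here. Without strand, reads from the shared bases cannot be told apart, and a counter that drops ambiguous reads would understate both genes. EMG1, named here for this overlap after its values were seen, was at 23.2, 25.9 and 23.96 CPM in siNC, 14.6, 15.3 and 14.7 CPM in siZIP7_1, and 9.82, 9.18 and 7.54 CPM in siZIP7_2. EMG1 was thus lowest in siZIP7_2, where LPCAT3 overlapped siNC, and LPCAT3 was lowest in siZIP7_1.

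**Figure D4:**
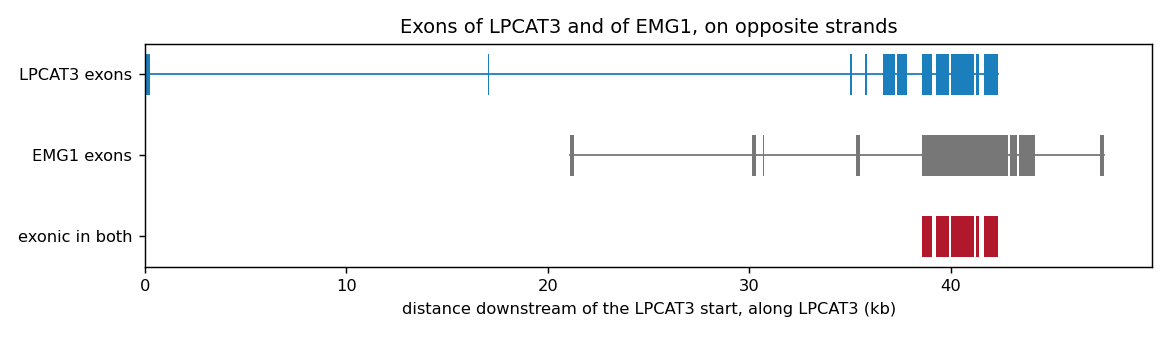
Exons of LPCAT3 and of EMG1 as merged from GENCODE 29 transcripts, with the distance downstream of the LPCAT3 start in kilobases on the horizontal axis. Boxes are exons, and the lowest row marks the bases that are exonic in both genes. The shared bases are 65.6% of the exonic length of LPCAT3 and lie in its 3′ exons.

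Desaturation involved SCD, FADS1 and FADS2, and each had its own pattern. SCD (ENSG00000099194, chromosome 10, 100347124 to 100364834, plus strand), which makes oleate and palmitoleate from saturated acyl-CoAs, was at 410.3, 382 and 425 CPM in siNC and at 305, 311 and 313 CPM in siZIP7_1. In siZIP7_2 it was at 415, 388 and 423 CPM, within the siNC range in all 3 libraries. SCD fell by 0.39 on the log2 scale with siZIP7_1 (SE 0.0486, adjusted p = 3.41e-08). With siZIP7_2 the value was 0.01, with a 95% interval from -0.09 to 0.11 (adjusted p = 0.869), and with upper-quartile normalization it was 0.12 and passed (adjusted p = 0.0276). The difference between the siRNAs was 0.40 (SE 0.0486, adjusted p = 1.63e-08).

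FADS1 and FADS2 lie on opposite strands of chromosome 11, with FADS1 inside the span of FADS2, and are the front-end desaturases of polyunsaturated fatty acid synthesis, with FADS2 acting before FADS1. FADS1 (ENSG00000149485, 61799625 to 61829318, minus strand) was at 305, 311 and 308 CPM in siNC, 293, 311 and 295 CPM in siZIP7_1, and 162, 156 and 158 CPM in siZIP7_2. The siZIP7_1 libraries overlapped siNC, and those of siZIP7_2 were all far below both. With siZIP7_1 the log2 fold change was -0.04, with a 95% interval from -0.13 to 0.05 (adjusted p = 0.430), and with siZIP7_2 it was -0.95 (SE 0.0451, adjusted p = 1.83e-17), a fall of 48.4%. The difference between the siRNAs was -0.92 (SE 0.0451, adjusted p = 3.45e-17).

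FADS2 (ENSG00000134824, 61792980 to 61867354, plus strand) was at 327, 323 and 325 CPM in siNC and rose to 463, 465 and 482 CPM in siZIP7_1. It was at 248, 246 and 264 CPM in siZIP7_2, below every siNC library. On the log2 scale FADS2 rose by 0.53 with siZIP7_1 (SE 0.0451, adjusted p = 1.33e-11) and fell by 0.36 with siZIP7_2 (SE 0.0454, adjusted p = 3.04e-08). The siRNAs differed by -0.90 (SE 0.0454, adjusted p = 6.86e-17), close to the difference in FADS1. The ratio of FADS1 to FADS2, on levels per kilobase, was 1.01, 1.03 and 1.02 in siNC. It was 0.681, 0.721 and 0.659 in siZIP7_1 and 0.704, 0.684 and 0.646 in siZIP7_2, so the siZIP7 groups overlapped each other and lay below siNC, by way of higher FADS2 in one group and lower FADS1 in the other. Exons of other genes, each including the partner of the pair, overlap 5.57% of the exonic length of FADS1 and 4.89% of that of FADS2, and without strand the reads there cannot be told apart.

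ELOVL5 (ENSG00000012660, chromosome 6, 53267398 to 53349179, minus strand), the elongase that acts on polyunsaturated chains between the desaturation steps, had the smallest value among the 10 genes when each was taken at its largest change against siNC. It was at 221, 231 and 241 CPM in siNC, 208, 235 and 201 CPM in siZIP7_1, and 192, 202 and 203 CPM in siZIP7_2. The siZIP7_2 libraries were all below siNC, and those of siZIP7_1 overlapped both groups. ELOVL5 fell by 0.21 on the log2 scale with siZIP7_2 (SE 0.0531, adjusted p = 0.000619). With siZIP7_1 the value was -0.11 (95% interval from -0.22 to 0.00, adjusted p = 0.0716), and this call turned on single libraries. Without siNC replicate 1 it was -0.14 (adjusted p = 0.0382), and without siZIP7_1 replicate 2, the highest of its group, it was -0.18 (adjusted p = 0.0022). Between the siRNAs the value was -0.11 (95% interval from -0.22 to 0.00, adjusted p = 0.0664), and it passed without siZIP7_1 replicate 1 (-0.14, adjusted p = 0.0392) or replicate 3 (-0.16, adjusted p = 0.0116).

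FASN (ENSG00000169710, chromosome 17, 82078333 to 82098332, minus strand), the fatty acid synthase that makes palmitate, was the member with the highest CPM. It was at 678, 659 and 635 CPM in siNC and at 1102, 972 and 1066 CPM in siZIP7_1. In siZIP7_2 it was at 568, 605 and 601 CPM. The siZIP7_1 libraries were all above the rest, and the siZIP7_2 libraries were all just below siNC. FASN rose by 0.67 on the log2 scale with siZIP7_1 (SE 0.0506, adjusted p = 1.08e-12), a 1.59-fold rise. With siZIP7_2 it fell by 0.15 (SE 0.0506, adjusted p = 0.00789). That fall did not pass without siZIP7_2 replicate 1 (-0.12, adjusted p = 0.0561), with upper-quartile normalization (-0.05, adjusted p = 0.405) or with at least 10 counts in every library (-0.08, adjusted p = 0.164). The difference between the siRNAs was -0.82 (SE 0.0508, adjusted p = 7.05e-15). The ratio of SCD to FASN, per kilobase, was 1.06, 1.01 and 1.17 in siNC, 0.483, 0.558 and 0.513 in siZIP7_1, and 1.28, 1.12 and 1.23 in siZIP7_2. It was lowest in siZIP7_1, where FASN rose and SCD fell, and the siNC and siZIP7_2 libraries overlapped.

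POR (ENSG00000127948, chromosome 7, 75899200 to 75986855, plus strand), the flavoprotein reductase of the endoplasmic reticulum, was at 39.2, 40.3 and 39.4 CPM in siNC. It was at 53.5, 53.8 and 52.6 CPM in siZIP7_1 and at 55.1, 55.0 and 53.5 CPM in siZIP7_2. All siZIP7 libraries were above siNC and the siZIP7 groups overlapped. On the log2 scale POR rose by 0.43 with siZIP7_1 (SE 0.0507, adjusted p = 1.31e-08) and by 0.46 with siZIP7_2 (SE 0.0508, adjusted p = 2.55e-09). The siRNAs differed by 0.03, with a 95% interval from -0.07 to 0.13 (adjusted p = 0.537), and by 0.11 with upper-quartile normalization (adjusted p = 0.0323).

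AGPS (ENSG00000018510, chromosome 2, 177392644 to 177559299, plus strand), the peroxisomal alkylglycerone phosphate synthase, had the largest difference between the siRNAs after LPCAT3. It was at 77.1, 79.6 and 80.7 CPM in siNC, 117, 125 and 112 CPM in siZIP7_1, and 58.5, 57.5 and 57.3 CPM in siZIP7_2. The groups did not overlap. AGPS rose by 0.58 on the log2 scale with siZIP7_1 (SE 0.0490, adjusted p = 1.44e-11) and fell by 0.45 with siZIP7_2 (SE 0.0509, adjusted p = 3.51e-09). The difference between the siRNAs was -1.03 (SE 0.0499, adjusted p = 2.32e-17).

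Compared per kilobase of exonic length, the 10 genes spanned a wide range in siNC. SCD was the highest, at 75.7 ± 4.07 FPKM (SD, n = 3), and overlapped FASN at 70.2 ± 2.32 FPKM. ELOVL5 followed at 60.6 ± 2.55 FPKM. ACSL4 (30.5 ± 1.43 FPKM), FADS1 (30.1 ± 0.266 FPKM) and FADS2 (29.5 ± 0.165 FPKM) were close together, and the libraries of ACSL4 overlapped those of FADS1. ACSL3 at 13.4 ± 0.622 FPKM and AGPS at 8.83 ± 0.204 FPKM came next, and POR (6.48 ± 0.0983 FPKM) and LPCAT3 (6.27 ± 0.384 FPKM) were the lowest and overlapped. The per-kilobase level of LPCAT3 counts all its exonic bases, including those shared with EMG1.

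This order changed with each siRNA. In siZIP7_1 FASN was at the top with 111.8 ± 7.18 FPKM (SD, n = 3), followed by SCD at 57.7 ± 0.783 FPKM, which overlapped ELOVL5 at 56.2 ± 4.77 FPKM. FADS2 at 42.7 ± 0.944 FPKM and ACSL4 at 42.6 ± 3.64 FPKM overlapped, and LPCAT3 was at the bottom with 1.45 ± 0.112 FPKM. In siZIP7_2 SCD was again the highest, at 76.2 ± 3.43 FPKM, and FADS1 fell to 15.5 ± 0.280 FPKM. AGPS at 6.44 ± 0.0684 FPKM was there below POR at 8.92 ± 0.145 FPKM, the reverse of siNC. No neighbours in the siZIP7_2 order overlapped.

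The promoter windows of the genes were read from RefSeq (GRCh38.p14) to show what lies before the starts of genes that moved together and of genes that moved apart. The table held 8 of the 10 members, all but FASN and POR, with a pair of entries for FADS2. ACSL4 rose with both siRNAs, ACSL3 and FADS1 separated them, and LPCAT3 and SCD fell with siZIP7_1. The part of the 250 bases before the start that lies outside all annotated exons is printed for these 5 genes, 5′ to 3′ on the gene's own strand. Capitals mark matches on either strand to a CCAAT box (CCAAT or ATTGG) or a GC box (GGGCGG or CCGCCC). Adjacent matches run together in ACSL3. The stretches are chrX:109733404-109733507 (minus strand) for ACSL4, chr2:222860786-222860933 (plus) for ACSL3, chr12:7018511-7018726 (minus) for LPCAT3, chr10:100346983-100347123 (plus) for SCD and chr11:61817198-61817253 (minus) for FADS1.
ACSL4: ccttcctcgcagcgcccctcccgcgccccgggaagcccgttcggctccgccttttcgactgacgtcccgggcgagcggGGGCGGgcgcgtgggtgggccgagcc
ACSL3: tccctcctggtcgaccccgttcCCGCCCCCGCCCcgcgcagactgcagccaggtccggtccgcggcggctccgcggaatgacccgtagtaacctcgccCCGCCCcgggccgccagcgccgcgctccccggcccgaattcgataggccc
LPCAT3: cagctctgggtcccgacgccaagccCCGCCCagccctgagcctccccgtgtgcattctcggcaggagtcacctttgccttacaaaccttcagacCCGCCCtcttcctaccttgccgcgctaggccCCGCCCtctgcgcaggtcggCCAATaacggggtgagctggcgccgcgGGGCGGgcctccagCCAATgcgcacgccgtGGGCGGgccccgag
SCD: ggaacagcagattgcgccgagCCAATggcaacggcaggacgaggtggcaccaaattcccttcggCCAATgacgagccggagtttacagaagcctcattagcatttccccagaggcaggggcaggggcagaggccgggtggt
FADS1: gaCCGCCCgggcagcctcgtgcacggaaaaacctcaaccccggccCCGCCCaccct

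Over the full 250 bases before the start, a CCAAT box was in 4 of the 8 members, with 3 matches in LPCAT3, 2 in SCD, 2 in ELOVL5 and 1 in ACSL3. It was in 32.01% of all 35116 windows of this length. A GC box was in 7 of the 8 members, against 42.6% of all windows, with 5 matches in LPCAT3 and 3 each in ACSL3 and ACSL4. SCD, LPCAT3 and ACSL3 held both CCAAT and GC boxes, and ACSL4, FADS1, FADS2 and AGPS held a GC box without a CCAAT box. For FADS2, 1 entry of the pair held 1 GC box and the other held 0. A member was counted when any of its entries matched, whereas the share of all windows counts each window. The sterol regulatory element searched for (TCACNCCAC, or GTGGNGTGA on the other strand) was in 0 of the 8 members and in 0.883% of all windows. These are matches of letters in this window, not measured binding sites.

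Beyond the members, 12 lists of other lipid genes, which hold none of the 10, show the setting in which they moved. Their counts are plotted beside those of all genes tested. Each count is read against the 34.8% higher and 35.9% lower of all genes with siZIP7_1, and the 38.5% and 39.3% with siZIP7_2. Genes were named from each list by the highest siNC level per kilobase, up to 3 per list. Several of their small changes rest on the setting or on single libraries. Calls were lost under at least 1 alternative besides the 1.8-fold test for ELOVL1, TECR, ACSL5, DBI, AGPAT1, SELENOI and CDIPT with siZIP7_1 and for ACLY, HACD3, SLC27A4, DBI and LPCAT1 with siZIP7_2, where values are given without a verb of change. For ELOVL1, TECR, DBI, AGPAT1, SELENOI and CDIPT with siZIP7_1, and ACLY, HACD3, SLC27A4 and DBI with siZIP7_2, leaving out any 1 of at least 2 libraries was enough. Calls were gained for ACLY, GNPAT and RXRB with siZIP7_1 and for DEGS1, GPAT3, PCYT1A, SCD5 and G0S2 with siZIP7_2. No value that had passed turned direction. Some of the named genes share exonic sequence with other genes, most of all CYB5B (35.1% of its exonic length), AGPAT1 (30.2%) and CDIPT (23.9%). The share was 19.2% for PAFAH1B3, 18.1% for MLX and 17.8% for PLIN3. The part of shared sequence in the values of these genes was not tested.

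**Figure D5:**
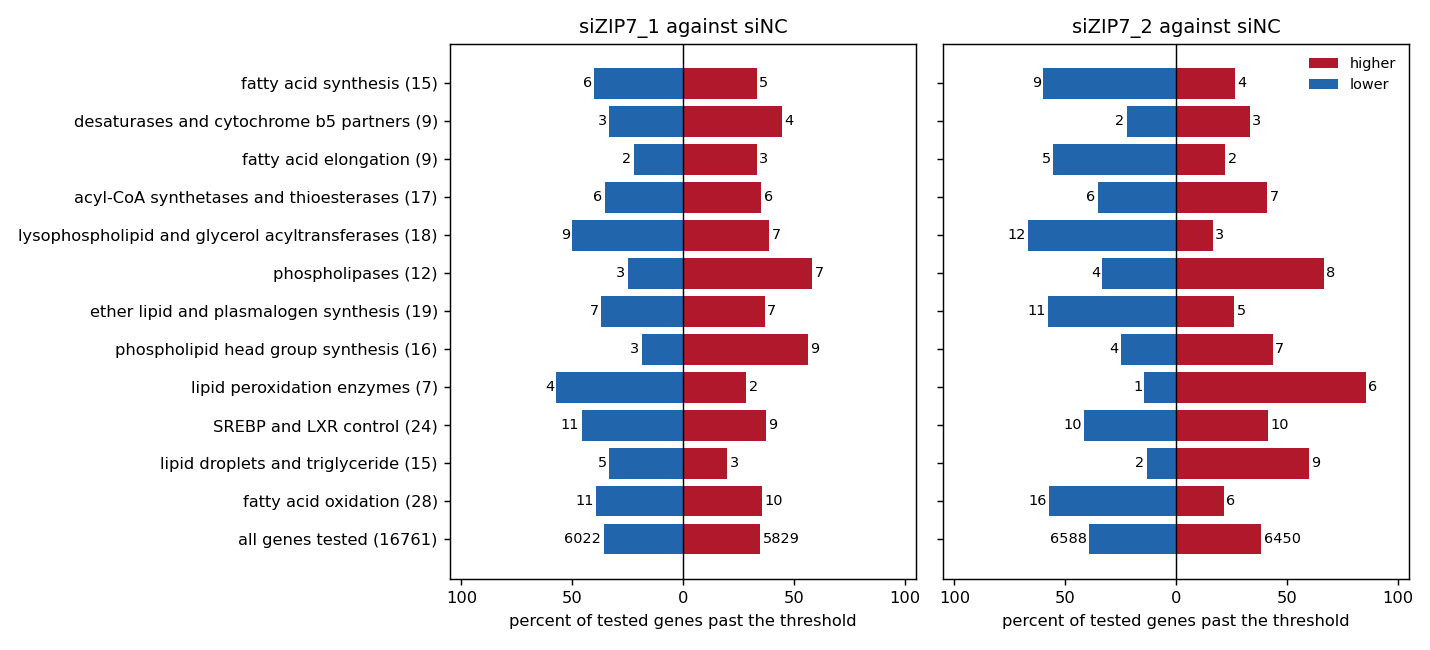
Percent of the tested genes of each of 12 lipid gene lists that were higher or lower than siNC with siZIP7_1 and with siZIP7_2, with the number of genes at each bar and the number tested in parentheses. The lowest row gives all 16761 genes tested. With siZIP7_2 the bars of the lipid peroxidation enzymes lie mostly on the higher side (6 higher, 1 lower of 7 tested, 14 listed). So do those of the lipid droplet list (9 higher, 2 lower of 15 tested, 26 listed). The bars of the lysophospholipid and glycerol acyltransferases (3 higher, 12 lower of 18) lie mostly on the lower side. The low-count filter can keep a gene that is expressed in only 1 group.

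The fatty acid synthesis list, which does not hold FASN, has genes that supply it with acetyl-CoA, malonyl-CoA or NADPH, such as ACLY, ACACA and PGD. It also has genes that do not, among them MCAT, OXSM, MECR, CBR4, OLAH, THRSP and MID1IP1. In this mixed list, 5 of 15 tested genes were higher and 6 lower with siZIP7_1, and 4 were higher and 9 lower with siZIP7_2. PGD, a dehydrogenase that makes NADPH, fell by 0.18 on the log2 scale with siZIP7_1 and by 0.53 with siZIP7_2. ACLY, which makes cytosolic acetyl-CoA, was at -0.09 with siZIP7_1 (adjusted p = 0.0774) and -0.11 with siZIP7_2. FASN itself had risen with siZIP7_1.

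Among other desaturases and their cytochrome b5 partners, 4 of 9 were higher and 3 lower with siZIP7_1, and 3 were higher and 2 lower with siZIP7_2 (6 higher with upper-quartile normalization). DEGS1, the dihydroceramide desaturase, fell by 0.75 with siZIP7_1 and was at 0.05 with siZIP7_2, where it did not pass. CYB5R3, the cytochrome b5 reductase, rose by 0.18 and 0.25, and CYB5B fell by 0.31 and 0.46. Of the paralogs of the members in this list, FADS3 and SCD5 were named after their values were seen. They had the highest and the lowest log2 fold change of the list with siZIP7_1. FADS3 rose from 30.9 ± 0.623 CPM in siNC to 107 ± 5.19 CPM in siZIP7_1 and 121 ± 3.49 CPM in siZIP7_2 (SD, n = 3 each), a log2 fold change of 1.79 and 1.97. SCD5 fell with siZIP7_1, as SCD did, from 28.5 ± 0.709 to 8.31 ± 0.0982 CPM (log2 fold change -1.78), and was at 29.2 ± 0.982 CPM with siZIP7_2 (log2 fold change 0.04, adjusted p = 0.609).

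Of the other elongation genes, 3 of 9 were higher and 2 lower with siZIP7_1, and 2 were higher and 5 lower with siZIP7_2. The 5 became 3 with DESeq2 or with upper-quartile normalization, and the latter left 1 lower with siZIP7_1. ELOVL1, which elongates saturated very long chains, was at -0.13 with siZIP7_1 and fell by 0.61 with siZIP7_2. TECR, the reductase of the last elongation step, was at 0.11 with siZIP7_1 and at -0.05 with siZIP7_2, where it did not pass. HACD3, a dehydratase of the cycle, rose by 0.28 with siZIP7_1 and was at -0.11 with siZIP7_2.

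Among other acyl-CoA synthetases, thioesterases and acyl-CoA carriers, 6 of 17 were higher and 6 lower with siZIP7_1, and 7 were higher and 6 lower with siZIP7_2. ACSL5 was at -0.18 with siZIP7_1 and rose by 0.30 with siZIP7_2. SLC27A4, a fatty acid transport protein with synthetase activity, fell by 0.60 with siZIP7_1 and was at -0.14 with siZIP7_2. DBI, the acyl-CoA binding protein, was at 0.13 and 0.14.

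The other lysophospholipid and glycerol acyltransferases were mostly lower with siZIP7_2, with 12 of 18 lower and 3 higher, and they were split with siZIP7_1, with 9 lower and 7 higher. MBOAT7, which places arachidonate into phosphatidylinositol, rose by 0.25 with siZIP7_1 and fell by 0.28 with siZIP7_2. AGPAT1, which makes phosphatidic acid, was at -0.12 with siZIP7_1 and fell by 0.98 with siZIP7_2. GPAT3 fell by 0.47 with siZIP7_1 and was at -0.07 with siZIP7_2, where it did not pass. LPCAT1, another lysophosphatidylcholine acyltransferase, prefers saturated chains and was named after its values were seen. It rose from 137 ± 7.34 CPM in siNC to 305 ± 10.04 CPM in siZIP7_1 (SD, n = 3 each, 2.23-fold), where LPCAT3 fell. With siZIP7_2 LPCAT1 was at 121 ± 3.06 CPM (log2 fold change -0.18, adjusted p = 0.0017).

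For the ether lipid and plasmalogen genes beside AGPS, 7 of 19 were higher and 7 lower with siZIP7_1, and 5 were higher and 11 lower with siZIP7_2, with median log2 fold changes of -0.05 and -0.49. GNPAT, the peroxisomal enzyme that acts just before AGPS, fell by 0.57 with siZIP7_2 and was at 0.07 with siZIP7_1 (adjusted p = 0.238). PEX19, a peroxisome assembly factor, fell by 0.53 and 0.43. SELENOI, an ethanolamine phosphotransferase that also makes plasmalogens, was at 0.13 with siZIP7_1 and fell by 0.61 with siZIP7_2, where AGPS also fell. In the head group list, 9 of 16 were higher and 3 lower with siZIP7_1, and 7 were higher and 4 lower with siZIP7_2. PTDSS1, a phosphatidylserine synthase, fell by 0.25 and 0.31. CDIPT, the phosphatidylinositol synthase, was at 0.13 with siZIP7_1 and fell by 0.69 with siZIP7_2, and PCYT1A, the rate-limiting enzyme of phosphatidylcholine synthesis, fell by 0.37 with siZIP7_1 and was at 0.08 with siZIP7_2, where it did not pass.

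The transcription factors SREBP and LXR and their regulators control SCD, FASN, FADS1, FADS2 and LPCAT3 in many cell types. The list of these factors and regulators also holds other genes, among them ABCA1, ABCG1, MYLIP, the PPAR genes, MLX and MLXIPL. In it, 9 of 24 tested genes were higher and 11 lower with siZIP7_1, and 10 were higher and 10 lower with siZIP7_2. NR1H2, which encodes LXR beta, rose by 0.35 and 0.70. RXRB, a partner of LXR, was at 0.05 with siZIP7_1, where it did not pass, and fell by 0.51 with siZIP7_2. RXRB shares exonic sequence with SLC39A7, the targeted gene. MLX rose by 0.19 and fell by 0.60. SREBF1, the gene of SREBP1 and named after its values were seen, was at 141 ± 2.90 CPM in siNC, 169.6 ± 6.93 CPM in siZIP7_1 and 97.8 ± 4.23 CPM in siZIP7_2 (SD, n = 3 each). It rose by 0.26 on the log2 scale with siZIP7_1 and fell by 0.53 with siZIP7_2. Among the members, FASN, FADS2, ACSL3 and AGPS passed in these directions, and the other 6 did not. Of all genes tested, 34.8% were higher with siZIP7_1 and 39.3% were lower with siZIP7_2. The share of genes that did both was not counted, so these members cannot be set against it. With upper-quartile normalization, FASN and ACSL3 no longer passed with siZIP7_2. Any part of SREBF1 in the values of the members was not tested. INSIG1, which holds SREBP in the endoplasmic reticulum and was chosen in the same way, rose from 86.9 ± 3.43 CPM to 113 ± 1.65 and 201 ± 9.03 CPM (log2 fold change 0.37 and 1.21).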

How the data were processed

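RNA-seq libraries of MDA-MB-231 cells, 3 per siRNA, were grouped by the siRNA in the labels. The authors deposited unnormalized read counts, 1 per Ensembl identifier. The submitters' processing notes name Trim Galore 0.4.1, FastQC 0.11.2, STAR, HTSeq 0.6.1 and DESeq2 1.16.1. Genome build, annotation and strand setting are not given in the sources used here. The counter's summary lines (10.3 to 14.1% of reads) were left out. GENCODE release 29 (GRCh38) held 58275 of the 58395 identifiers.

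Counts were fitted in R 4.3.3 with edgeR 4.0.16 (TMM, filterByExpr, 3 groups in 1 fit, quasi-likelihood test, Benjamini-Hochberg adjustment over 16761 genes), with 6 residual degrees of freedom and a biological coefficient of variation of 4.50%. Intervals are 95% intervals from the SE. FPKM is CPM per kilobase of exonic length. The steps were tested on simulated data. The members and lists were chosen with earlier results of these data known. Named were all 10 members, SLC39A7 and, in each list, the 3 genes with the highest siNC FPKM. Of these, 1 gene is not reported here. EMG1, SREBF1, INSIG1, FADS3, SCD5 and LPCAT1 were added after their values were seen. Libraries of the same number did not deviate together (correlations from -0.0493 to 0.0754 over 9 pairs), so no pairing was used. No library was a copy of another (chi-squared per gene within groups 2.49 to 6.54). As alternatives, DESeq2 1.42.0 was run, normalization was changed to the DESeq2 size factors, upper quartile or library size alone, the filter was dropped or raised to 10 counts per library, the replicate number was added as a block, glmTreat tested against 1.8-fold, each pair of groups was fitted alone, and every library was omitted once.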

Additional observations from a re-analysis of the deposited data

Results flagged for a closer look

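The share of reads that HTSeq assigned to no gene, which enters no comparison above, was higher in every siZIP7_2 library than in every siNC library. It was 7.43 to 8.28% in siNC, 7.80 to 9.62% in siZIP7_1 and 9.99 to 11.5% in siZIP7_2, and 9.99% was the lowest siZIP7_2 value. It moved with the siRNA beside the lipid genes, and its part in their values was not tested. Of the measured values of the 10 lipid genes, none was tested for outlying libraries, since the groups hold 3 libraries each.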

How the results depend on the processing

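Tested against a change of 1.8-fold, 0 of the 10 genes were higher and 1 lower (LPCAT3) with siZIP7_1, 0 higher and 1 lower (FADS1) with siZIP7_2, and 1 higher (LPCAT3) and 1 lower (AGPS) between the siRNAs, among 2836, 4134 and 4725 genes in all. With the replicate number as a block (replicate block), 11927, 13080 and 13242 genes passed, and ELOVL5 gained its call with siZIP7_1 (-0.11, adjusted p = 0.0471) and between the siRNAs (-0.11, adjusted p = 0.0490). Under every other alternative, each count over the 10 genes or over all genes stayed within 1.5 times. For counts as small as those of the members, this range is wide. With upper-quartile normalization, 3 members were higher and 4 lower with siZIP7_2 against siNC, where the main fit had 2 and 6. Omitting 1 library gave 11291 to 11984, 12633 to 13360 and 12840 to 13458 genes, with 6, 2 and 2 members higher and 2 to 3, 5 to 6 and 5 to 6 lower. Upper-quartile normalization moved the median of all genes by 0.11 for siZIP7_2 against siNC, and the calls it ended or added among the 10 genes are given with them. ELOVL5 between the siRNAs also passed by library size alone (-0.16, adjusted p = 0.00388) and without the low-count filter (-0.16, adjusted p = 0.00455). The cause was not tested for any of these. The log2 values that turned direction were all short of the threshold. For ACSL4 between the siRNAs they were 0.024 with DESeq2 and with its size factors, 0.070 with upper-quartile normalization, 0.041 with at least 10 counts and 0.010 in the pair fit, and -0.071 to 0.052 over the fits without 1 library. With siZIP7_2, upper-quartile normalization gave 0.012 for LPCAT3, 0.062 for TECR and 0.034 for GPAT3, at least 10 counts gave 0.030 for TECR and 0.0021 for GPAT3, and no filter gave -0.042 for SCD, -0.0023 for DEGS1 and -0.017 for SCD5. Over the fits without 1 library, SCD with siZIP7_2 ranged from -0.033 to 0.053 and G0S2 from -0.0061 to 0.14. By library size alone FADS1 with siZIP7_1 was 0.048 and POR between the siRNAs was -0.023, and POR was -0.015 without the filter. List counts were recomputed under 4 alternatives only, where 69 moved by over 1.5 times and 219 did not. Against siNC, those that moved other than in the 1.8-fold test are given with their lists.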

Other observations

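Lipid genes further from the members also differed between the siRNAs. Of 14 listed lipid peroxidation enzymes, 7 passed the low-count filter and were tested. Of these, 2 were higher and 4 lower with siZIP7_1, and 6 were higher and 1 lower with siZIP7_2 (0 lower with upper-quartile normalization). The filter can keep a gene that is expressed in only 1 group, through the group where it is high. List counts were not recomputed with at least 10 counts in every library, so these counts draw no conclusion about the list. PTGS2, which encodes cyclooxygenase-2 and is often used as a transcript marker of ferroptosis, fell from 56.7 ± 4.01 CPM in siNC to 15.7 ± 1.81 CPM in siZIP7_1 and rose to 1189 ± 68.8 CPM in siZIP7_2 (SD, n = 3 each), with log2 fold changes of -1.86 and 4.39. For the RNA libraries, the paper describes siRNA transfection and names no inducer of ferroptosis. The paper reports that ZIP7 knockdown protected MDA-MB-231 cells when ferroptosis was induced by erastin or by cystine deprivation. Whether PTGS2 tracks ferroptosis in these libraries was not tested. CYP1B1 fell by 2.82 with siZIP7_1 and rose by 0.53 with siZIP7_2. PEBP1, a partner of lipoxygenases, was at -0.15 with each, and its call was lost by library size alone with siZIP7_1 and with upper-quartile normalization or at least 10 counts with siZIP7_2. Of 12 phospholipases, 7 were higher and 3 lower with siZIP7_1, and 8 were higher and 4 lower with siZIP7_2. PAFAH1B3 rose by 0.42 and fell by 0.71, while PAFAH1B2 fell by 0.30 and rose by 0.49, and PNPLA6, a lysophospholipase, fell by 0.47 and rose by 0.45.

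In the lipid droplet and triglyceride list, 15 of 26 genes passed the low-count filter, and the same limit holds. Of these, 3 were higher and 5 lower with siZIP7_1, and 9 were higher and 2 lower with siZIP7_2. G0S2, an inhibitor of the triglyceride lipase PNPLA2, fell from 192 ± 20.8 CPM to 7.08 ± 0.480 CPM with siZIP7_1 (SD, n = 3 each, log2 fold change -4.77) and was at 199 ± 6.58 CPM with siZIP7_2, where it did not pass (log2 fold change 0.05). It passed there without siNC replicate 2 (0.14, adjusted p = 0.0221), with upper-quartile normalization (0.16, adjusted p = 0.0101) and where each library had to hold 10 counts (0.13, adjusted p = 0.0408). PNPLA2 itself rose by 0.45 and 0.47, and the droplet coat gene PLIN3 rose by 0.46 and 0.97. Of 28 fatty acid oxidation genes, 10 were higher and 11 lower with siZIP7_1, and 6 were higher and 16 lower with siZIP7_2. HADHA and HADHB, subunits of the mitochondrial trifunctional protein, went apart, with HADHA lower by 1.21 and 0.37 and HADHB higher by 0.49 and 0.36 on the log2 scale. ACADVL, the very long chain acyl-CoA dehydrogenase, fell by 0.33 with siZIP7_1 and rose by 0.54 with siZIP7_2.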
